A study of Mus musculus with 4 samples.

Results

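The cells described here are paraxial and somite mesoderm of early mouse embryos, found among sorted cells of the Mesp1 lineage. They were chosen by a rule on raw UMI counts, that is, on the number of distinct captured RNA molecules of a gene in a cell. A cell was a member if it held at least 2 UMIs of Meox1, at least 1 of Tcf15 and none of Cdh5, with 1000 or more genes detected and at most 10% of its UMIs from mitochondrial genes. At E8.0, 1172 of 7577 retained cells were members, which is 15.5% (exact Clopper-Pearson 95% interval 14.7 to 16.3). At E8.25, 715 of 2954 were members, which is 24.2% (22.7 to 25.8). In all, 1887 of 10531 early cells and of 22625 cells of the whole series met the rule in these libraries. Because Meox1, Tcf15 and Cdh5 chose the members, their levels, and every difference between members and other cells, are given as a description with no test.

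The study asked how the Mesp1 lineage gives rise to the heart and the muscles of the head and neck. All libraries came from Swiss Webster embryos of the genotype Mesp1Cre;Rosa26-GFPflox/+, in which Cre made from the Mesp1 gene of nascent mesoderm switches on GFP in a cell and all its descendants. E8.0 and E8.25 (days of embryonic development) were dissected as the upper part of the body, and the later E9.5 and E10.5 libraries as the pharyngeal apparatus with the heart. Embryos of a stage were pooled, GFP-positive and DAPI-negative (living) cells were sorted, and 1 droplet library per stage was made with the 10x Genomics 3' kit. No mutant is part of these libraries, every embryo carried both Cre and reporter, and neither transgene is in the gene table. A somite cell outside the Mesp1 lineage would not have been sorted, and how much of the paraxial mesoderm Mesp1 Cre labels was not measured. With 1 library per stage there was no replicate, so no p-value is given anywhere, all intervals cover counting error only, and stage, pool of embryos and sequencing depth cannot be told apart.

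Paraxial mesoderm lies on both sides of the neural tube and is cut from the front backwards into somites, the repeated blocks that later form vertebrae, ribs, skeletal muscle of the trunk and dermis. A wave of Notch, Wnt and FGF signalling in the unsegmented presomitic mesoderm sets the boundaries, and retinoic acid made by the somites themselves faces it from the front. Each somite is divided into an anterior part with Tbx18 and a posterior part with Uncx, and later into a dorsal dermomyotome marked by Pax3 and a ventral sclerotome marked by Pax1 and Pax9. Meox1 and Tcf15 are transcription factors of the whole epithelial somite, while Foxc2 is a forkhead factor shared with head mesoderm and vessels.

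Promoters are shown for 4 genes that the reference table holds and that differed among members: Meox2 and Dmrt2, which were higher in members with Pax3, and Uncx and Tbx18, which mark the opposite parts of a somite. The windows below run 5′ to 3′ on the strand of the gene from 250 to 51 bases before its RefSeq start (build GRCm38.p6). Capitals mark the E-box CANNTG, the site class of basic helix-loop-helix factors such as Tcf15, and TAATTA, a core site of homeodomain factors such as Meox1 and Meox2. Both motifs were searched on both strands, on which the E-box pattern and TAATTA read alike, and the motifs do not overlap each other. TAATTA was added to the search after the sequences had been read.
Meox2: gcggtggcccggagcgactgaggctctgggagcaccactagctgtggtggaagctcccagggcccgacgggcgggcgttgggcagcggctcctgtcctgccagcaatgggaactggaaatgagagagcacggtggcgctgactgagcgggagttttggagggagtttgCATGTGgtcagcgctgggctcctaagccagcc
Dmrt2: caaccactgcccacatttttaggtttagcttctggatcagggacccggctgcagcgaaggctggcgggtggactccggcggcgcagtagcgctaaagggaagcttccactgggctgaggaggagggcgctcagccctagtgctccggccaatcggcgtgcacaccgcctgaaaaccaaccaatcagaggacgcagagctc
Uncx: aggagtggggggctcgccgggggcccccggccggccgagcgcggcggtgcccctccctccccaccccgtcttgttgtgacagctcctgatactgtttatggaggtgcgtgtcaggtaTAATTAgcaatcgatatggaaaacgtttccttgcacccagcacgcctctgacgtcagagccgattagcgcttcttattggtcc
Tbx18: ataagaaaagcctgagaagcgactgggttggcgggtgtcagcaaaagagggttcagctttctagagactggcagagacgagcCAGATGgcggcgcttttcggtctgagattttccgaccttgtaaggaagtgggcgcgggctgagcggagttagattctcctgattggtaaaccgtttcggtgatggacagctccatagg

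The Meox2 window lies at chr12:37108290-37108489 on the plus strand and holds 1 E-box. The Dmrt2 window at chr19:25672161-25672360 (plus) holds neither motif. The Uncx window at chr5:139543648-139543847 (plus) holds 1 TAATTA and no E-box, whereas the Tbx18 window at chr9:87731311-87731510 (minus) holds 1 E-box and no TAATTA. Of 32851 RefSeq promoter windows of the same 200 bases, 59.0% held an E-box and 4.19% a TAATTA. A match in these windows is a description of the letters, not of binding. The promoters of Meox1, Tcf15, Foxc2 and Pax3 are not shown.

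Among members, Meox1 (chromosome 11, 101877510 to 101894354) had a median of 10 UMIs a cell at E8.0 and 12 at E8.25. The middle 50% of cells ranged from 6 to 16 and from 6 to 19 UMIs. Its highest values were 62 and 71 UMIs. Tcf15 (chromosome 2, 152143056 to 152149097) had a median of 9 UMIs in both libraries and reached 60 and 129. Most members therefore stood above the thresholds, and 93 members at E8.0 and 73 at E8.25 sat at the Meox1 minimum of 2 UMIs. At the Tcf15 minimum of 1 UMI sat 102 and 107. Of the other retained cells, 16.5% and 33.6% held a Meox1 UMI and 24.9% and 43.4% a Tcf15 UMI. Of cells with at least 5% globin UMIs, 15.9% and 34.5% held a Meox1 UMI and 14.5% and 48.6% a Tcf15 UMI. Counts were also pooled over the members of a library and scaled to the total of the pool, in counts per 1000000 UMIs (CPM), which is the level used below. Foxc2, which the rule did not use, was at 151 and 77.5 CPM in the members at the Meox1 minimum and at 90.5 and 68.5 in the 236 and 264 cells just outside it, with 1 Meox1 UMI. Pax3 was at 22.3 and 5.96 CPM just inside and at 9.85 and 5.85 just outside. The 188 and 151 cells that failed only on Tcf15 had Foxc2 at 60.8 and 56.6 CPM. The 29 and 35 cells that failed only on Cdh5 had it at 124 and 152, and 15 of those 29 were called doublets, droplets that hold more than 1 cell.

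The 2 libraries differed in depth. The median depth over all retained cells was 21663 UMIs at E8.0 and 35467 at E8.25, and over members 21288.5 and 35121. When every cell was thinned at random to 10000 UMIs before the rule was applied, the shares of members were 13.1% and 16%. Doublet scores marked 147 members at E8.0 (12.5%, against 6.06% of retained cells) and 32 at E8.25 (4.48%, against 2.37%). The libraries shared 41 cell barcodes, and 2 of these belonged to members in both. Globin made up a median of 0.0111% of a member's UMIs at E8.0 and 0.293% at E8.25. Members with at least 5% globin UMIs were found only at E8.25, where they numbered 10, 7 of them at the Meox1 minimum.

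Of the markers that the rule did not use, Foxc2 was present in nearly every member and Pax3 in fewer. Foxc2 was found in 93.3% of members at E8.0 and 93.6% at E8.25 (median 4 and 6 UMIs). Pax3 was found in 55.0% and 35.0%. At an equal 10000 UMIs a cell, Foxc2 was detected in 83.3% and 75% of members, in 30.9% and 33.7% of the other cells, and in 7.58% and 9.88% of globin-rich blood cells, which should lack the gene. Unthinned, those blood cells had median depths of 35904 and 52603 UMIs. Pax3 at that depth was in 34.3% and 16.4% of members, in 4.06% and 4.02% of other cells and in 0 of 66 (which allows a share of up to 4.55%) and 0.926% of globin-rich cells.

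**Figure D1:**
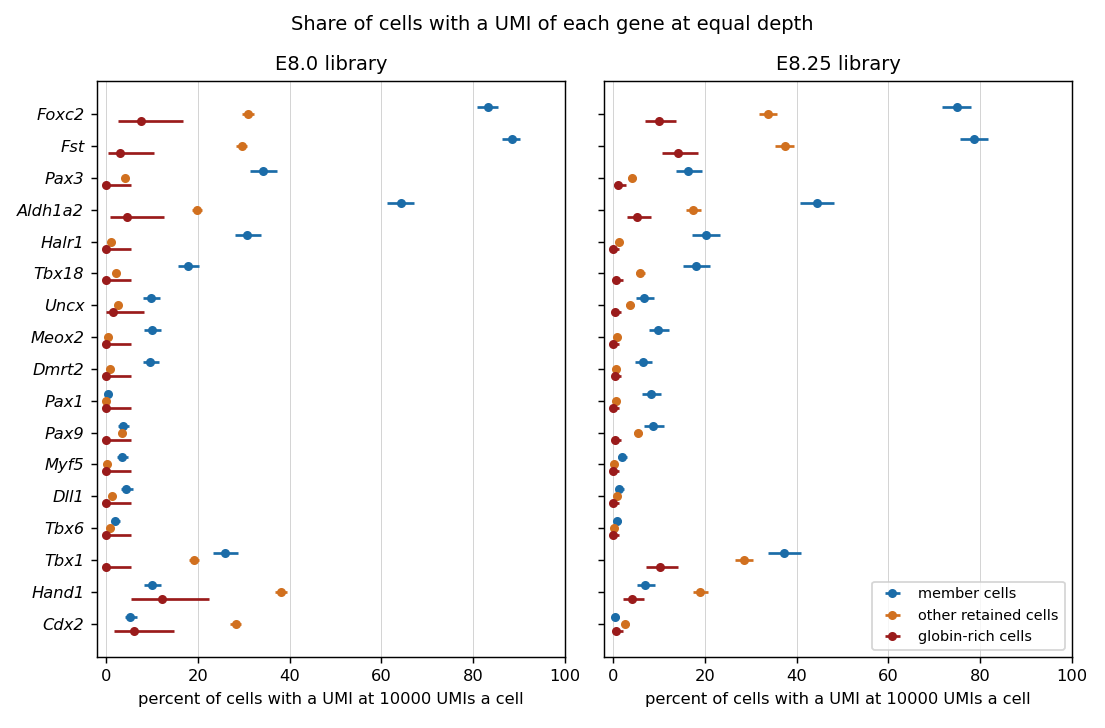
Percent of cells with at least 1 UMI of each gene after thinning to 10000 UMIs a cell, for members, other retained cells and globin-rich cells at E8.0 and E8.25, with exact 95% binomial intervals. Foxc2 and Fst were found in over 70% of members in both libraries, whereas Meox2, Dmrt2, Tbx18 and Uncx were found in fewer than 20% of them.

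Genes of other cell types were low in members but not at 0. The summed level of the blood list was 265 CPM in members against 2015 in the other cells at E8.0, and 5234 against 25699 at E8.25. The cardiomyocyte list (Tnnt2, Myl7 and others) summed to 137 against 964 and to 109 against 398 CPM. The endothelial list summed to 79.2 against 280 and to 70.9 against 157. All 7 tested blood genes and all 7 tested cardiomyocyte genes were lower in members in both libraries by the rule given next. The other cells include blood and heart cells. Against the Cdx cells described below, none of 6 blood and none of 5 cardiomyocyte genes was called. Against the Foxf1 cells described below, 0 of 6 blood and 2 of 5 cardiomyocyte genes were lower. In members, the neural crest list summed to 2.86 and 13.5 CPM and the neural list to 13 and 10.4, with Tfap2b at 0 UMIs at E8.0.

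The levels of members were then set against those of the 6405 and 2239 other retained cells of the same library. A gene was called higher or lower where it differed at least 2-fold in the same direction in both libraries, with a mean of at least 5 CPM over the sums. Of 8845 genes past that filter, 82 were called higher (0.927%) and 205 lower (2.32%), and the median log2 ratio over all of them was -0.04 at E8.0 and 0.02 at E8.25. All 8 tested genes of the somite list (Foxc1, Foxc2, Meox2, Pax3, Fst, Dmrt2, Tbx18 and Uncx) were among the higher ones, with median log2 ratios of 2.84 and 1.73. Sim1, the remaining member of that list, was under the filter.

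Pax3 (chromosome 1, 78101267 to 78197136), the paired-box factor of the dermomyotome and muscle progenitors, stood at 51.1 CPM in members against 4.29 in other cells at E8.0, and at 24.1 against 5.66 at E8.25 (log2 ratios 3.57 and 2.09). Foxc2 stood at 208 against 50.4 and at 175 against 50.9 (log2 ratio 2.04, interval 1.99 to 2.10, and 1.78, 1.72 to 1.84). Its relative Foxc1, which acts with it in somite formation, stood at 56.2 against 16.9 and at 36.7 against 17.1. Both forkhead genes were thus well present in the other cells too, whereas Pax3 was not. Meox2, which acts with Meox1 in somites, stood at 11.7 against 0.307 and at 14.3 against 0.893 CPM (log2 ratios 5.25 and 4.0). Dmrt2, a doublesex-related factor of the dermomyotome, stood at 12.8 against 0.628 and at 8.31 against 0.627. The next genes mark parts of the somite or are secreted by it. Fst, which encodes the activin and BMP antagonist follistatin, was at 443 against 136 and at 378 against 167. Tbx18 was at 22.1 against 2.50 and at 19.2 against 6.13, and Uncx at 16.6 against 2.86 and at 11.0 against 3.43. In each of the 8 genes the members were above the other cells in both libraries, and in all but Meox2 the members' own level was higher at E8.0 than at E8.25.

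**Figure D2:**
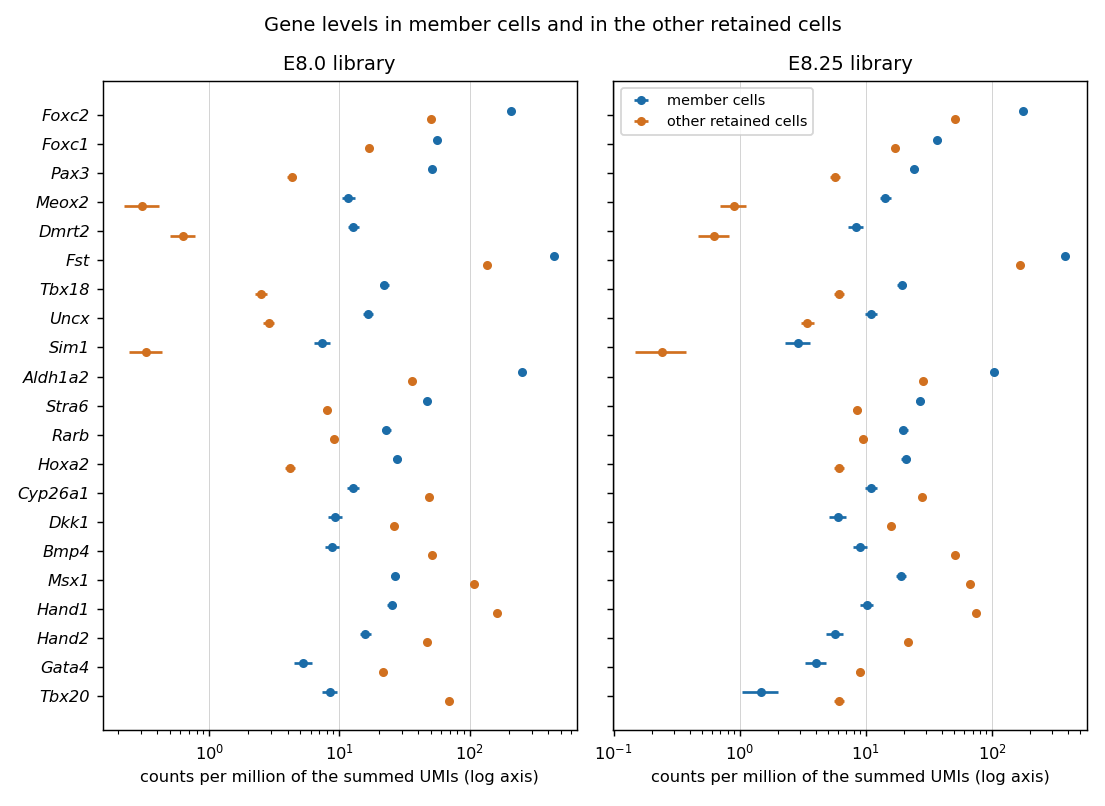
Summed level of 21 genes in CPM (log axis) in members and in other retained cells, with E8.0 and E8.25 plotted apart and exact 95% Poisson intervals. The somite genes from Foxc2 to Uncx sit higher in members in both libraries, and heart and lateral plate genes such as Tbx20 and Hand1 sit lower.

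The leading higher genes by the smaller of the 2 ratios included Halr1, Traf3ip2, Wfdc21, Arg1, Ntn1 and Plppr1 beside Meox2 and Dmrt2 of the somite list. Halr1, a long noncoding RNA beside the Hoxa cluster (chromosome 6, 52102949 to 52113684), led them at 39.5 CPM against 1.09 at E8.0 and 24.7 against 1.34 at E8.25. It was detected in 30.8% and 20.1% of members at 10000 UMIs a cell, and in none of 66 and none of 324 globin-rich cells, which allows a share of up to 4.55% and 0.926%. Arg1, the urea-cycle enzyme arginase, was at 326 against 39.6 and at 405 against 84.8 CPM. Traf3ip2, an adaptor of interleukin-17 receptors, was at 34.5 against 4.86 and at 41.8 against 5.95. These 3 were several-fold apart in both libraries, while within members Wfdc21 was higher at E8.0 than at E8.25. Wfdc21, a secreted protein of the WAP family, was at 44.7 against 2.31 and at 4.94 against 0.833. Ntn1, the guidance cue netrin-1, was at 23.7 against 2.10 and at 22 against 4.67, and Plppr1 at 15.5 against 0.878 and at 6.81 against 1.48.

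In the retinoic acid list 3 of 11 tested genes were higher and 1 lower in members (median log2 ratios 0.81 and 0.41). Aldh1a2, the enzyme that makes retinoic acid in somites, was at 252 CPM against 36.1 at E8.0 and at 104 against 28.2 at E8.25. Stra6, a receptor for retinol uptake, was at 46.7 against 8.0 and at 26.7 against 8.56. Rarb, a receptor that retinoic acid itself induces, was at 22.8 against 9.03 and at 19.8 against 9.53. These are genes of synthesis, uptake and reception, and the fourth called gene went the other way. Cyp26a1, which degrades retinoic acid, was at 12.7 against 48.6 and at 11.0 against 27.7. Rdh10, which makes retinaldehyde, was at 42.4 against 19.1 and at 30.8 against 17.8, which missed the 2-fold limit at E8.25. Against the Cdx cells described below, none of the 11 genes was called (medians 0.67 and -0.36), with Rarb at 22.8 against 3.77 and at 19.8 against 15.2. Against Foxf1 cells Aldh1a2 and Stra6 were higher, Cyp26a1 was lower and Rarb was not called.

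Among signalling lists, the BMP list had 4 of 11 tested genes lower and none higher (median log2 ratios -1.54 and -0.69). The ligand Bmp4 was at 8.79 CPM in members against 51.2 at E8.0 and at 9.0 against 50.5 at E8.25, and Bmp2 at 4.06 against 29.8 and 4.10 against 18.4. The BMP-responsive factors Msx1 and Msx2 were lower as well, Msx2 at 8.05 against 47.9 and at 9.22 against 36.4. In the Hedgehog list 1 of 8 was higher (medians 0.71 and 0.43). That gene was Gli1, the transcriptional target and readout of Hedgehog signalling, at 14.6 against 5.71 and at 13.7 against 5.02. Ptch1, its receptor and another target, was at 78.4 against 47.8 and at 66.2 against 35.4 and was not called. No Hedgehog gene was called against Cdx cells (7 tested, medians 0.67 and 0.01) or Foxf1 cells (8 tested, medians 0.47 and -0.05). In the Notch list 1 of 9 was higher and 1 lower (medians -0.21 and 0.14), namely Dll3, a divergent ligand of the segmentation clock, at 15.2 against 4.63 and at 5.89 against 2.32, and the feedback inhibitor Nrarp at 5.23 against 11.1 and at 2.71 against 5.90. The Wnt list had 1 of 11 lower, the antagonist Dkk1, at 9.32 against 26.2 and at 5.97 against 15.8. The FGF list had 0 of 9 called, and the 15 tested cell cycle genes had none called, with medians of 0.01 and -0.11. Mki67, a marker of cycling cells, was at 76.2 against 77.9 and at 58.7 against 64.2.

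Few members carried RNA of Msgn1 or Tbx6, defining factors of the unsegmented presomitic mesoderm. At 10000 UMIs a cell, Msgn1 was detected in none of 1058 and none of 715 members (which allows up to 0.284% and 0.42%). In other cells it was in 0.162% at E8.0 and in none of 2214 at E8.25. Tbx6 was in 1.98% and 0.699% of members against 0.736% and 0.0903% of other cells. The clock gene Hes7 was in 3.50% and 1.96% against 1.46% and 1.13%, and Dll3 in 11.4% and 4.06% against 4.02% and 2.39%. Summed over the presomitic list, members were lower, at 131 against 188 CPM and at 85.0 against 115. Of the 13 presomitic genes 6 passed the filter, with Dll3 higher, Cyp26a1 lower and median log2 ratios of -0.49 and -0.34. Genes of the forming boundary were rare but had more RNA in members than elsewhere. Mesp2, which sets the somite boundary, was at 3.18 CPM against 0.179 at E8.0 and at 0.439 against 0.109 at E8.25. Ripply2, its feedback repressor, was at 4.45 against 0.371 at E8.0. Both were under the filter. Muscle genes were rare as well. Myf5, the earliest myogenic factor, was at 3.71 against 0.271 and at 2.82 against 0.169 and was found in 3.50% and 1.82% of members at 10000 UMIs.

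Genes of neighbouring mesoderm were lower in members. In the lateral plate list 8 of 11 tested genes were called lower and none higher (median log2 ratios -2.26 and -1.76). Hand1, a basic helix-loop-helix factor of heart and body wall, was at 25.1 CPM against 161 at E8.0 and at 10.1 against 75.1 at E8.25. Gata4 was at 5.26 against 21.5 and at 3.99 against 9.04, and Tbx20, a heart T-box factor, at 8.40 against 68.8 and at 1.46 against 6.09. Genes of the cardiopharyngeal mesoderm differed less. Isl1, a factor of the second heart field, was at 20.8 against 40.9 and at 15.1 against 21.9, and Tbx1, the T-box factor of pharyngeal mesoderm, was at 46.7 against 31.3 and at 61.9 against 49.1, and neither was called. Thinned to 10000 UMIs, Tbx1 was detected in 26.0% and 37.2% of members, against 19.1% and 28.5% of other cells and 0 of 66 and 10.2% of globin-rich cells. The leading lower genes over the whole table were Ctla2a, Icam2, Hemgn, Trim10, Pitx1, Pcgf5, Aqp8, Tek, Hbb-bs and Hoxb6. Ctla2a, Icam2 and Tek are expressed by endothelium and Hemgn, Trim10, Aqp8 and Hbb-bs by red blood cells. Cells with Cdh5 were kept out of the members by the rule, and against other cells without Cdh5 and without globin-rich cells the log2 ratios of Hemgn, Trim10 and Aqp8 were 0.94, 0.53 and 0.0226. Pitx1, a homeobox factor of the caudal body and hindlimb, was at 7.45 against 69.6 and at 0.732 against 5.85.

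Hox genes, whose paralogue numbers follow position along the body axis from front to back, differed in both directions. Summed over 7 genes of paralogue groups 1 to 3, levels were 155 CPM in members against 123 in other cells at E8.0 and 130.4 against 105.02 at E8.25. Over groups 5 to 9 they were 49.5 against 304 and 20.1 against 57.3. Over groups 10 to 13 they were 6.78 against 63.6 at E8.0, and at E8.25 no UMI was found in members (0.0603 in other cells). In sum, members were thus somewhat above other cells for the most anterior groups and below them for the posterior ones. They were not above the Cdx cells described below, which had 178 and 251 CPM over groups 1 to 3. Of 19 tested genes 2 were higher and 9 lower (median log2 ratios -1.36 and -0.64). Hoxa2 was at 27.9 against 4.18 and at 20.8 against 6.11 and Hoxa3 at 8.83 against 4.36 and at 10.7 against 4.72. Hoxb6 was at 8.05 against 54.1 and at 2.27 against 15.8. Hoxd1, of the most anterior group, was called lower too, at 11.7 against 30.0 and at 6.48 against 14.1.

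**Figure D3:**
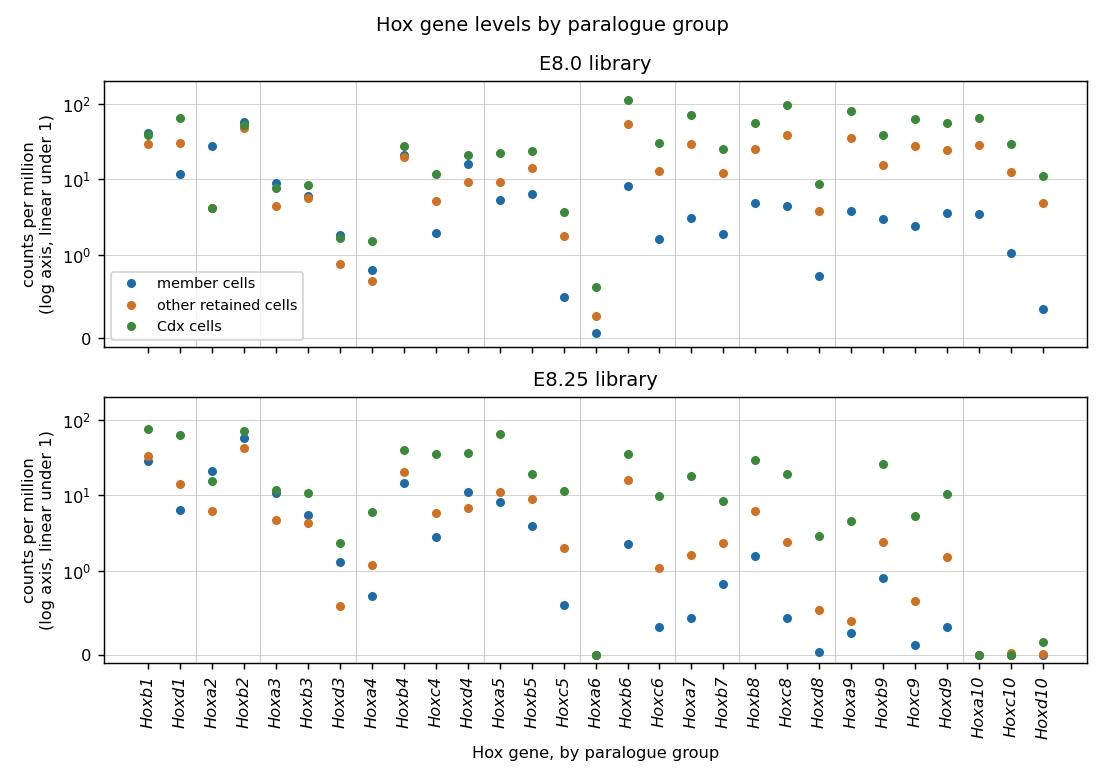
Summed level of Hox genes in CPM, ordered by paralogue group from front to back, in members, other cells and caudal Cdx cells at E8.0 and E8.25. Members exceed other cells at Hoxa2 and Hoxa3 and lie below them at most genes from group 5 on, where Cdx cells are highest. At Hoxd1 too, members lie below other cells and Cdx cells.

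Caudal and lateral plate kinds of mesoderm were compared with the members in the same way. Caudal Cdx cells (2047 and 160 cells) were non-members with at least 2 UMIs over Cdx1, Cdx2 and Cdx4 and none of Cdh5, and Foxf1 cells (1089 and 156) were non-members with at least 2 UMIs of Foxf1, a factor of lateral plate, and none of Meox1 or Cdh5. Against Cdx cells 120 of 8787 genes were higher in members (1.37%) and 129 lower (1.47%), with all-gene median log2 ratios of -0.05 and -0.07. Against Foxf1 cells 128 of 8868 were higher (1.44%) and 293 lower (3.3%), with both medians at -0.06. All 8 tested somite genes were higher against either set, with median log2 ratios of 4.79 and 2.94 against Cdx cells and 4.87 and 4.22 against Foxf1 cells. Both sets hold no member, and Foxf1 cells hold no Meox1 UMI by their rule, so these ratios are a description too.

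The leading higher genes included Meox2, Dmrt2, Halr1 and Cer1 against Cdx cells and were Meox2, Pax3, Halr1, Uncx and Dmrt2 against Foxf1 cells. Cer1, a secreted antagonist of Nodal, BMP and Wnt ligands, was at 43.2 CPM in members against 1.21 in Cdx cells at E8.0 and at 5.27 against 0.292 at E8.25. Of the dermomyotome list, 3 of 4 tested genes (Dmrt2, Eya1 and Pax3) were higher against either set. Tbx1, which had not stood apart from other cells as a whole, was called higher against both, at 46.7 against 5.61 and 61.9 against 15.6 for Cdx cells and against 7.62 and 15.1 for Foxf1 cells. The lower genes were led by posterior Hox genes against Cdx cells (Hoxc9, Hoxa7, Hoxc8, Hoxc6 and Hoxa9). Hoxc9 was at 2.37 against 62.0 and at 0.110 against 5.40, Hoxa7 at 3.04 against 70.8 and at 0.439 against 18.1. In all, 14 of 24 tested Hox genes were lower against Cdx cells (medians -3.60 and -3.15) and 14 of 23 against Foxf1 cells (-3.46 and -2.76). The lower genes against Foxf1 cells were led by Tdo2, Postn, Hoxc9, Tac2 and Hoxc8. Tdo2, the enzyme that degrades tryptophan, was at 0.212 against 28.3 and at 1.28 against 88.2, and Postn, the matrix protein periostin, at 0.282 against 5.98 and at 2.52 against 75.4.

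Members also varied among themselves. Uncx and Tbx18, markers of the posterior and anterior parts of a somite, were found together in few cells. At 10000 UMIs a cell, Tbx18 was detected in 8 of the 103 members with an Uncx UMI at E8.0 (7.77%, interval 3.41 to 14.7) against 19.0% of members without Uncx, and in 5 of 48 at E8.25 (10.4%) against 18.6%. Members with Uncx only (166 and 79) were then set against those with Tbx18 only (330 and 236). Of 8764 genes 14 were higher in the Uncx members (0.16%) and 9 lower (0.103%), with all-gene medians of 0.01 in both libraries. The leading higher genes were Dll1, Epha2, Nrarp, Etv4 and Fgf10. Dll1, the Notch ligand of the posterior somite, was at 15.5 CPM against 3.98 at E8.0 and at 3.22 against 0.719 at E8.25 (log2 ratios 1.96 and 2.16). Nrarp, a Notch target, was at 10.6 against 3.51 and at 6.44 against 1.32. Epha2, an ephrin receptor, was at 12.5 against 2.69 and at 20.5 against 6.71, and Efnb2, a boundary ephrin, at 28.4 against 12.1 and at 13.5 against 5.99. All 4 were higher in Uncx members in both libraries, although Efnb2 passed the 2-fold limit only with doublets kept.

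Among genes higher in the Tbx18 members, Plac1, S1pr3, Cxcl12 and Lrrtm3 were among the leading ones. S1pr3, a sphingosine-1-phosphate receptor, was at 4.39 CPM in Uncx members against 14.5 in Tbx18 members at E8.0 and at 15.5 against 35.8 at E8.25. Cxcl12, a chemokine, was at 2.54 against 7.62 and at 21.7 against 47.9. Pax3 was not called, at 55.9 against 61.2 and at 25.2 against 27.5, nor was Foxc2, at 235 against 222 and at 160 against 232. Boundary genes too low for the filter were apart at E8.0, with Mesp2 at 11.5 against 0.586 and Ripply2 at 0.692 against 7.62. The Uncx members were deeper, with medians of 23650.5 against 21623.5 UMIs and 42123 against 32048.5, and the part of depth in these ratios was not tested.

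A second line ran along Pax3, a split chosen after its values were seen. Members with at least 2 Pax3 UMIs (366 and 147) were set against members with none (527 and 465). Of 8744 genes 15 were higher with Pax3 (0.172%) and 17 lower (0.194%), against all-gene medians of -0.02 and -0.04. Dmrt2 and Meox2 led the higher ones, followed by Wfdc21, Lrrtm3 and Foxb1. Dmrt2 was at 23.1 CPM against 5.41 at E8.0 and at 26.8 against 1.02 at E8.25 (log2 ratios 2.09 and 4.72), and Meox2 at 21.3 against 4.10 and at 27.6 against 8.14. Counted over cells thinned to 10000 UMIs, Dmrt2 was found in 15.2% of the 363 members with at least 1 Pax3 UMI left and 6.76% of all other members at E8.0, and in 21.4% of 117 and 3.51% at E8.25. Foxb1, a forkhead factor, was at 29.0 against 9.34 and at 11.1 against 3.83, and Sim1, a factor of lateral somite, at 11.4 against 4.71 and at 6.29 against 1.5. Hoxb4 and Hoxd4 were also higher, Hoxd4 at 23.2 against 10.6 and at 24.4 against 6.65.

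The genes lower in Pax3 members were led by Igfbpl1, Epha2, Tbx1, Pax1 and Gata6, and included several known from pharyngeal and cardiac mesoderm. The Pax1 call rests on few cells at E8.0, where 8 of 1172 members held a UMI of it. In thinned cells at E8.25, Pax1 was in 7.69% of members with at least 1 Pax3 UMI left and 8.19% of all others. These shares barely differed, so the call does not show that the RNAs of Pax1 and Pax3 exclude each other. Tbx1 was at 25.9 CPM with Pax3 against 65.2 without at E8.0, and at 27.5 against 79.4 at E8.25 (log2 ratios -1.33 and -1.53). Over the same thinned cells, Tbx1 was detected in 18.2% of members with at least 1 Pax3 UMI left and 30.1% of all others at E8.0, and in 16.2% and 41.3% at E8.25. Isl1 was at 12.7 against 31.1 and at 8.48 against 18.3, Hand2 at 10.1 against 21.9 and at 3.07 against 7.49, and the ligand Fgf8 at 17.1 against 52.2 and at 15.2 against 31.4. Etv5, a target of FGF signalling, was at 3.21 against 7.77 and at 5.55 against 12.7. Median UMIs were 23017.5 with Pax3 against 20429 without, and 43793 against 33768. The part of depth in the ratios of this split was not tested.

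The third split followed position. Members with at least 2 UMIs over Hox groups 5 to 9 (140 and 81) were set against members with none (795 and 540). Of 8747 genes outside the gate 59 were higher (0.675%) and 11 lower (0.126%), against all-gene medians of 0.01 and 0.03. Cdx4, Hoxaas3, Hoxb5os, Hoxc4 and Cdx2 led the higher ones. Cdx4, a caudal homeobox factor that acts upstream of Hox genes, was at 38.7 CPM against 1.51 at E8.0 and at 5.11 against 0.207 at E8.25, and Cdx2 at 46.2 against 3.43 and at 11.4 against 0.259. Clock and Notch genes of newly made paraxial mesoderm were among them, with Hes7 at 32.6 against 1.92 and at 11.0 against 1.60, Dll1 at 24.2 against 3.20 and at 6.82 against 1.14, and Dll3 at 32.4 against 10.7 and at 19.7 against 2.95. Lateral plate genes were too, with Hand1 at 90.2 against 7.85 and at 29.7 against 6.26. The posterior-Hox members were much deeper (medians 37198 against 20252 UMIs, and 50996 against 33458.5), and 68 of the 140 at E8.0 were called doublets (48.6%, against 7.17% of those with none). At E8.25 the shares of doublets were 7.41% and 4.07%. Without doublet calls, 49 of the 59 higher genes were still called and 4 of the 11 lower ones. Log2 ratios of Hes7 were then 4.99 and 2.78, of Dll1 4.02 and 2.69 and of Hand1 2.63 and 1.99, and Bmp2, Gata4 and Pitx1 were among those no longer called. The leading lower genes included Epha2, Saa2, Sncaip and Hba-a1. Meox1 itself was at 337 against 558 and at 305 against 384.

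**Figure D4:**
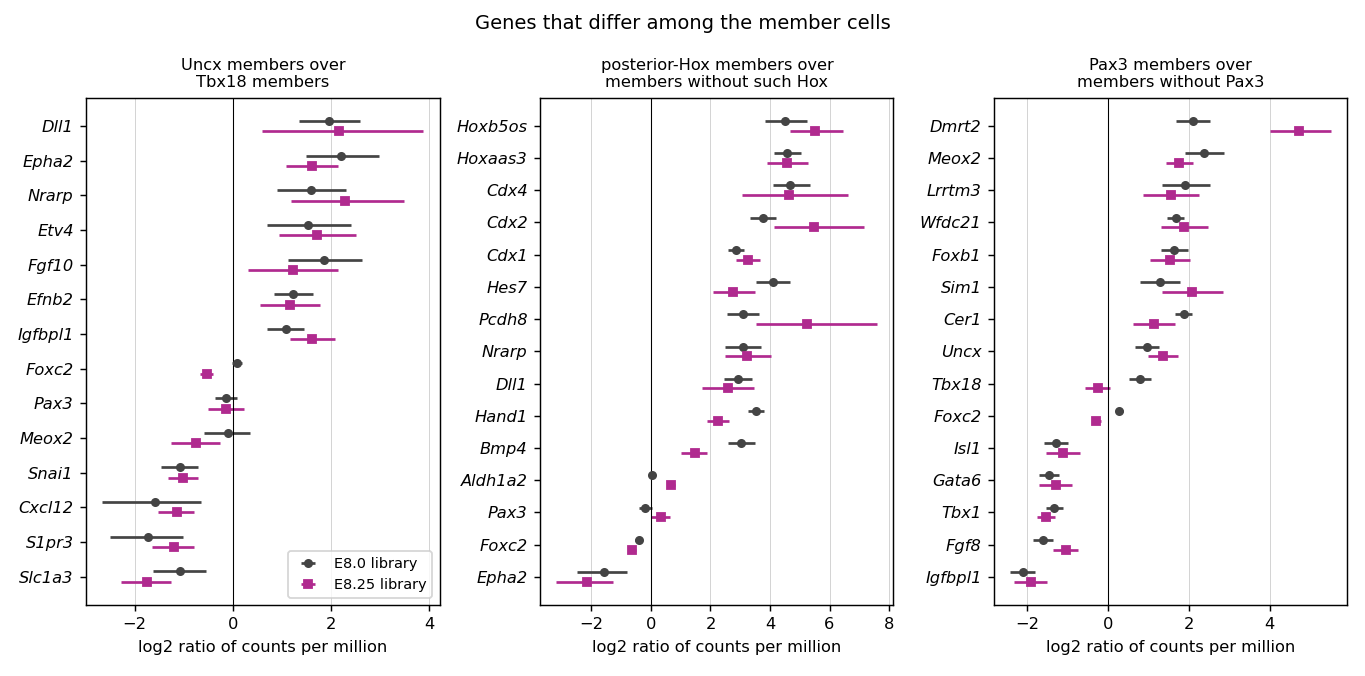
Log2 ratios with exact 95% counting intervals for 3 splits of the members (Uncx against Tbx18, posterior Hox against none, Pax3 against none), 1 point per library. Dll1 lies on the Uncx side and S1pr3 on the Tbx18 side in both libraries, Dmrt2 and Meox2 go with Pax3 and Tbx1 goes against it.

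Between the stages, within members, 135 of 8758 genes were at least 2-fold higher at E8.25 (1.54%) and 149 lower (1.7%), with an all-gene median of 0.01. Part of these counts did not concern somite genes. Of the 135, 5 were globin genes, 7 belonged to the erythroid list and 17 had names of pseudogenes or unnamed gene models, as did 31 of the 149. The leading 10 higher genes were Hbb-y, Pax1, Hba-a1, Hbb-bs, Gm29666, Aldh1a3, Hbb-bh1, Gm3839, Hba-x and Alas2, and the leading 10 lower ones Gm6594, Lefty2, Rpl7a-ps3, Gm5611, Pou5f1, Ptgds, Gm6133, Wfdc21, Gm9844 and Cer1. Globin and the leading pseudogene also differed in the same direction in the cells that were not members. The embryonic globin Hba-x had a log2 ratio of 4.07 in members and 3.53 in the others, Hbb-y 5.31 and 5.83, and Gm6594 -6.81 and -9.95. The values in other cells are therefore given beside each stage ratio below, and the difference between them was not tested. The make-up of the other cells differed between the libraries. Of retained cells, Cdx cells were 27.0% at E8.0 and 5.42% at E8.25, Foxf1 cells 14.4% and 5.28%, and globin-rich cells 0.911% and 11.0%. The part of make-up in the ratios of other cells was not tested. Globin, erythroid, pseudogene and gene-model names were left out in the order that follows, a choice made after the values were seen.

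Of the 4 tested sclerotome genes 3 were higher at E8.25, with a median log2 ratio of 1.36. Pax1 (chromosome 2), which marks ventral somite, went from 0.318 CPM at E8.0 to 12.4 at E8.25, a log2 ratio of 5.29 (interval 4.35 to 6.43), against 0.00714 to 0.845 in the other cells. It was found in 8 of 1172 members and then in 122 of 715. At equal depth it was found in 0.378% and 8.11% of members. It was then in none of 66 and none of 324 globin-rich cells, which allows up to 4.55% and 0.926%. Unthinned, Pax1 was in 7 of 325 globin-rich cells at E8.25 (2.15%). Pax9, its relative, went from 4.10 to 8.97 (log2 ratio 1.13, other cells 0.56), and Sox9, the master factor of cartilage, from 23.0 to 69.4 (1.59, others 0.89). Twist1 was at 112 and 108 and was not called. The leading higher genes held the matrix genes Lum and Col3a1, whereas of the 16 tested genes of the adhesion and matrix list none was higher and 2 were lower (Epha4 and Pcdh19, median 0.05). Lum, the proteoglycan lumican, went from 6.0 to 60.8 (3.34, others 1.58), and Col3a1, a fibrillar collagen, from 2.68 to 22.6 (3.07, others 2.45). Aldh1a3, a second enzyme of retinoic acid synthesis, went from 0.636 to 11.6 (4.20, others 3.52), and Cxcl12 from 4.80 to 30.8 (2.68, others 1.79). Saa1 and Saa2, acute-phase proteins, rose by log2 ratios of 2.80 and 3.55 against 1.02 and 1.86 in other cells, and Id1, a BMP target, by 1.03 against 0.22.

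The genes that fell included Lefty2, Pou5f1, Cer1, the clock genes Hes7 and Dll3, and Aldh1a2. Lefty2, a Nodal antagonist of the left side, went from 71.1 CPM to 1.54 (log2 ratio -5.53, others -5.17), and Pou5f1, the pluripotency factor Oct4, from 13 to 0.842 (-3.95, others -3.78). These had about the same ratio in members and in the other cells. Cer1 went from 43.2 to 5.27 (-3.04, others -0.86), Dact2, a modulator of Wnt and TGF-beta signalling, from 34.9 to 5.82 (-2.59, others -1.26), and Pcdh19, a protocadherin, from 27.4 to 5.64 (-2.28, others -1.86). The clock genes Hes7 and Dll3 went from 7.77 to 2.86 and from 15.2 to 5.89 (-1.44 and -1.37, others -0.84 and -1.0). Aldh1a2 went from 252 to 104 (-1.27, others -0.36). It was the only call among the 11 retinoic acid genes tested, a list that does not hold Aldh1a3, which rose from under 1 CPM.

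Among the somite genes, Pax3 was lower at E8.25 in members and not in the other cells, whose make-up differed between the libraries. It went from 51.1 to 24.1 CPM in members (log2 ratio -1.08, interval -1.22 to -0.95) and from 4.29 to 5.66 in the other cells (0.40, interval 0.22 to 0.58). At equal depth it was found in 34.3% of members at E8.0 and 16.4% at E8.25, and in 4.06% and 4.02% of the other cells. The members themselves were chosen on unthinned UMIs. Among the 869 and 470 cells that met the rule after thinning, Pax3 was at 57.0 and 32.7 CPM in their full counts. That drop is less than 2-fold. Tbx18, Fst and Uncx had ratios of opposite sign too, all within 2-fold in members, with log2 ratios in the other cells of 1.29, 0.30 and 0.26. Of the 9 somite genes tested, Pax3 and Sim1 were called lower and none higher, with a median of -0.59. Foxc2 (-0.25), Fst (-0.23), Tbx18 (-0.21) and Meox2 (0.28) stayed within 2-fold, as did Uncx (-0.59), Dmrt2 (-0.63), Foxc1 (-0.61) and Tbx1 (0.40). None of the 15 cell cycle genes tested was called (median -0.04).

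**Figure D5:**
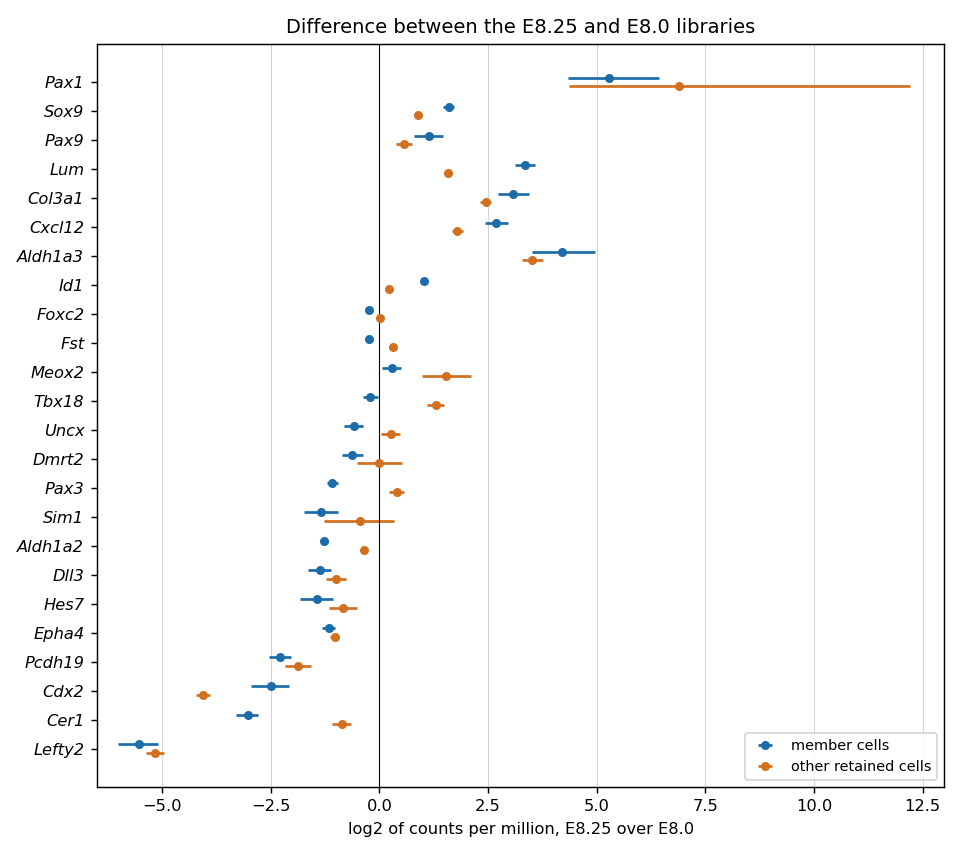
Log2 ratio of E8.25 to E8.0 in members and in other cells, with exact 95% counting intervals. Pax1, Sox9, Lum and Aldh1a3 lie to the right of 0 and Aldh1a2, Dll3, Cer1 and Lefty2 to the left in both sets of cells, while Pax3, Tbx18, Fst and Uncx are left of 0 in members and right of 0 in the others.

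Since Pax1 appeared between the stages, the 122 members with a Pax1 UMI at E8.25 were set against the 593 without, a comparison chosen after its values were seen and made in 1 library. Of 8748 genes 97 were at least 2-fold higher in Pax1 members (1.11%) and 69 lower (0.789%). Hspb1, Srpx, Myl3, Fam101a and Actc1 led the higher ones. Tbx18 was at 47.7 CPM with Pax1 against 13.8 without (log2 ratio 1.79, interval 1.53 to 2.05), and Pax9 at 16.3 against 7.58. Uncx was higher too, at 18.3 against 9.58 (log2 ratio 0.94, interval 0.55 to 1.31), but missed the 2-fold limit. Aldh1a2, which fell between the stages over all members, was at 254 with Pax1 against 75.5 without. Lum was at 135 against 46.8, and Col1a1, the main fibrillar collagen of bone and skin, at 41.0 against 13.8. Of the other sclerotome genes Pax9 was the only one called, with Sox9 at 92.4 against 65.0. Contractile genes were higher too, with the cardiac actin Actc1 at 70.8 against 12.0, Tnnt2 at 23.2 against 9.10 and Myl7 at 100.2 against 32.9, while the cardiac factor Nkx2-5 was at 6.42 against 7.36. Cardiomyocytes also express these contractile genes, and the part of their RNA in the difference was not tested. The lower genes were led by Hhex, Epha2, Hopx, Tal1 and Spry1, and also held Etv2 (13.3 against 48.0), Tbx1 (28.0 against 68.3) and Fgf8 (11.2 against 27.9). Pax3 was at 22.2 against 24.5 and Foxc2 at 255 against 160. Meox2, which also went with Pax3, was called higher with Pax1, at 25.7 against 12.1. The Pax1 members were the shallower ones, with a median of 30307 UMIs against 35922, and 2.46% of them were called doublets against 4.89%.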

How the data were processed

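Living GFP-positive cells of the Mesp1 lineage were sorted from pooled embryos and 1 library per stage was made. Per the submitters' processing notes, reads were handled with Cell Ranger 3.1.0 and mm10, and the authors deposited raw UMI counts of 27998 genes per called cell, not normalized. Cells with at least 1000 genes and at most 10% mitochondrial UMIs were retained, which removed 4 of 7581 cells at E8.0 and 2 of 2956 at E8.25. Deposited totals were 168407965 and 110213770 UMIs.

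The members and the gene lists were chosen with earlier results of these data known, and most lists were adapted from tables made with those results in view. UMIs were summed over each set of cells per library and scaled to counts per 1000000 UMIs (CPM). Ratios carry exact binomial, levels exact Poisson and shares exact Clopper-Pearson 95% intervals, which cover counting error only. A gene was called at 2-fold or more in the same direction in both libraries (in the 1 pair available for stage and for Pax1), with a mean of at least 5 CPM over the sums. A sum of 0 was set at 3 UMIs per sum, and genes of a gate were left out of its counts. Doublets were kept. The highest Scrublet scores (scanpy 1.11.5), at 0.8% of cells per 1000 cells, were called doublets, since the method's own threshold marked 1.58% at E8.0 and 0.169% at E8.25. Genes were named if they were markers, if they belonged to a list and were called or high, or if they led a comparison (10 per direction for members and stage, 5 for the others, by the smaller of the log2 ratios). The splits by Pax3 and Pax1 and a threshold of 3 Etv2 UMIs were chosen after the values were seen, as were further genes named in them. Alternatives were TMM (trimmed mean of M values) scaling with edgeR 4.0.16 in R 4.3.3, scaling without globin, mitochondrial and ribosomal protein genes, no filter, cells thinned to 10000 UMIs, other Meox1 thresholds, doublets removed, and single libraries. The comparison of sums was tested on simulated data. Python 3.11.15, numpy 2.4.6, pandas 2.3.3, scipy 1.17.1 and matplotlib 3.10.9 were used. Some genes are not reported here; they were left out of the lists, the sums over Hox genes and the figures, while counts over all genes still include them.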

Additional observations from a re-analysis of the deposited data

Results flagged for a closer look

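The same rule on genes was met by cells of the later libraries, which were dissected from another region and enter no comparison above: 42 of 4052 retained cells at E9.5 (1.04%) and 118 of 8042 at E10.5 (1.47%). Pax3 differed in its stage ratio between members and other early cells: the log2 ratio of E8.25 to E8.0 was -1.08 in members and 0.40 in the others, in 1 library per stage, and the difference was not tested. In cells that met the rule after thinning, Pax3 went from 57.0 to 32.7 CPM, which is less than 2-fold. Tbx18, Fst and Uncx had ratios of opposite sign as well (-0.21, -0.23 and -0.59 in members, 1.29, 0.30 and 0.26 in the others), likewise not tested. The make-up of the other cells differed between the libraries.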

How the results depend on the processing

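The share of members at E8.0 was 13.1% with cells thinned to 10000 UMIs, 18.6% and 14.2% with Meox1 thresholds of 1 and 3 UMIs, and 14.4% with doublets removed. At E8.25 it was 16% thinned and 33.1% and 21.7% with those thresholds. Without the filter on low levels, counts of genes higher and lower were 324 and 907 for members against other cells, 417 and 379 against Cdx cells, 412 and 681 against Foxf1 cells, 1020 and 1013 for the stages, 55 and 102 for Uncx against Tbx18, 188 and 93 for posterior Hox, 59 and 134 for Pax3 and 658 and 601 for Pax1; more genes were then tested. In the E8.0 library alone, 137 genes were higher and 363 lower in members. With members chosen on thinned UMIs, 210 genes were higher at E8.25. With doublets removed, 15 genes were lower in Uncx members and 19 in posterior-Hox members. With other cells free of Cdh5 UMIs and of globin-rich cells, the log2 ratios of the red cell genes Hemgn, Trim10 and Aqp8 turned to 0.94, 0.53 and 0.0226, and 55 of the 82 higher and 126 of the 205 lower calls were shared with the comparison to all other cells. Of 352 values of 44 single genes under alternatives, the other 349 kept their direction, and 67 of these lay outside the counting interval of the main value. Where no cause is given, the cause was not tested.

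The comparison with Cyp26c1 cells was not run, since 19 and 17 cells met its rule. No paired analysis was possible because each stage has 1 library. Depth limits genes found in few cells, such as Mesp2, Myf5 and Uncx, and a gene without UMIs in a cell may still be expressed there.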

Other observations

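Some members carried RNA of the blood and vessel lineage factor Etv2. Members with at least 3 Etv2 UMIs numbered 55 at E8.0 and 37 at E8.25, a group set after the values were seen. Kdr, the VEGF receptor of vascular progenitors, was at 151 and 144 CPM in them against 10.6 and 11.9 in members without Etv2. Tal1, a factor of blood and vessel progenitors, was at 96.6 and 89.0 against 2.27 and 6.43, and its partner Lmo2 at 118 and 191 against 5.54 and 12.3. The defining marker of mature endothelium Pecam1 was near 0, at 0.961 and 1.02, and the erythroid factor Gata1 was at 0 and 1.53. The rule kept cells with a Cdh5 UMI out of the members, which bears on this Pecam1 level. In other cells with at least 3 Etv2 UMIs, with or without Cdh5, Pecam1 was at 12.0 and 9.13 and Kdr at 258 and 208. Meox1 was at 303 and 207 CPM in the members with at least 3 Etv2 UMIs. Their median depth was 38264 against 20311 UMIs at E8.0 and 51739 against 33422 at E8.25, and 34 of 55 and 8 of 37 were called doublets. The part of doublets in these levels was not tested.

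Cells of the later libraries that met the rule on genes are values only, since the dissected region changed with stage. In the 42 cells at E9.5, Pax3 was at 118 CPM, Meox2 at 33.4, Aldh1a2 at 17.9 and the myogenic factor Myf5 at 13.1, and no Pax1 UMI was found. In the 118 cells at E10.5, Pax3 was at 106, Meox2 at 50.1, Myf5 at 48.3, Pax1 at 57.5 and Aldh1a2 at 3.05.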
